A study of Mus musculus with 6 samples.

Results

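The genes of the cytosolic ribosomal proteins are described here in mouse tibialis anterior, a shin muscle in which fast fibres dominate. The members were the protein-coding genes in the tables whose mouse symbol has the form Rpl, Rps or Rplp plus a number, or is Rpsa. Rpl3 was left out by the rule, and a gene had to be above 0 FPKM in at least 1 library. This gave 75 of the 41025 genes in the tables, 45 of the large subunit and 30 of the small subunit. The name rule does not reach every ribosomal protein: Rps3a1, Fau and Rack1, for example, carry other kinds of name and are given separately. FPKM is the number of sequenced fragments of a gene, scaled by gene length and library total.

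Of the 6 libraries, 3 were labelled Mettl21e KO and 3 were labelled wild type (WT). All came from C57BL/6 mice aged 8 weeks, and both groups were otherwise described alike. Mettl21e belongs to the METTL21 family of protein methyltransferases, and the comparison asks which transcripts differ in muscle in which the gene was deleted. The sources used here do not say how the gene was deleted or in which cells. The submitters call the replicates biological but do not say that 1 mouse gave 1 library, and p-values here reflect only how far the libraries differ among themselves.

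Between 8476591 and 10856669 fragments were counted per library, so that for a transcript of 1 kb a single fragment equalled 0.0921 to 0.118 FPKM. Mettl21e itself was at 1.64, 1.45 and 1.88 FPKM in the KO-labelled libraries, against 2.46, 0.309 and 1.23 FPKM in the WT-labelled libraries. These values rested on only 38, 36 and 38 fragments under the KO label and on 63, 8 and 26 under the WT label. The targeted gene was therefore not lower under the KO label, and the groups overlapped. The sources used here do not say which part of the gene was removed, and these levels may not check the deletion. Every direction below is between labels and carries this limit. Summed over 13 markers of fast fibres, the level was 90040 to 92630 FPKM in the KO-labelled libraries and 89590 to 96540 FPKM in the WT-labelled libraries.

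A ribosome needs nearly every ribosomal protein in equal number, since each sits at 1 place in the large or the small subunit. The acidic stalk proteins, of which a ribosome carries several copies, are the exception. The large subunit joins amino acids and holds the exit tunnel and the stalk that recruits translation factors, and the small subunit reads the mRNA. Most vertebrate ribosomal protein mRNAs begin with a run of pyrimidines, the 5′ terminal oligopyrimidine (TOP) tract, through which growth signals and the kinase mTOR control their translation. In adult muscle, ribosome number is one of the determinants of the capacity for protein synthesis during growth.

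The pyrimidine run is a feature of the members that their name did not use, and it was looked for at the start sites in RefSeq (GRCm38.p6). The search was for a C followed by C or T only, at least 6 bases in all, on the coding strand. This C had to lie within 10 bases of the annotated first base of the transcript, and the nearest such C was taken. It could lie inside a longer run of C and T that began upstream. RefSeq had an entry for 56 of the 75 members. A run was present for 31 of these 56 genes (55.4%), against 5910 of 27025 genes with an entry (21.9%). It was present for 18 of 34 large subunit genes and 13 of 22 small subunit genes. The C that was taken was the annotated first base itself for 11 of 56 members (19.6%) and for 2.05% of all genes. This includes genes whose run of C and T began upstream of that base. Each sequence below shows 25 bases before and 15 bases from the annotated start, with the run in capitals from the C that was taken. The first 3 show the feature in its plainest form, the next 3 belong to members of low level described below, and in the last 3, the abundant Rplp0 and Rpl41 and the lowest member Rpl24, the search found no run.
Rps6, chr4:86857353-86857392, minus strand: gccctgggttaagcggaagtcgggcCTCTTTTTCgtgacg
Rpl38, chr11:114668555-114668594, plus strand: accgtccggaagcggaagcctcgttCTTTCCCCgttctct
Rpl15, chr14:18270972-18271011, minus strand: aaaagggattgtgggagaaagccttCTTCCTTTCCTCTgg
Rpl35, chr2:39005117-39005156, minus strand: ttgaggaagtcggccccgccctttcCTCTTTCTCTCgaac
Rps15a, chr7:118116133-118116172, minus strand: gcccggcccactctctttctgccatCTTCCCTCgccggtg
Rpl12, chr2:32961687-32961726, plus strand: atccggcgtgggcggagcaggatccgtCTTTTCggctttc
Rplp0, chr5:115559442-115559481, plus strand: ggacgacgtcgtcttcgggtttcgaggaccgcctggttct
Rpl41, chr10:128549154-128549193, minus strand: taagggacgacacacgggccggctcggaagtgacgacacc
Rpl24, chr16:55966250-55966289, plus strand: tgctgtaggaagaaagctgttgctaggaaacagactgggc
The capitals of Rpl35 and Rps15a begin at the annotated first base, as those of Rps6 and Rpl38 do. In every sequence with capitals, C or T also stands directly before them, so the stretch of C and T itself begins upstream of the capitals. In Rpl35, Rps6 and Rpl15 these preceding bases include a C, and in Rpl38, Rps15a and Rpl12 they are T only. The capitals of Rpl12 start 2 bases after the annotated first base and have the minimum of 6 bases. RefSeq had no entry for Rpl23a, the other low member. A sequence without a run says only that these letters are not in this window.

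Ribosomal protein transcripts were abundant and stood within a narrow band of levels. The median of the members' mean levels was 277.7 FPKM, against 8.718 FPKM over the 11383 tested genes, those with a mean of at least 1 FPKM. Of the 75 members, 65 had a mean between 100 and 500 FPKM, 5 were above 500 and 5 were below 100. Together the members held 1.49%, 1.66% and 1.69% of all fragments in the KO-labelled libraries, against 1.75%, 1.59% and 1.63% in the WT-labelled libraries. The medians of the subunits were close, at 265.9 FPKM for 45 large subunit genes and 298.3 FPKM for 30 small subunit genes.

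**Figure D1:**
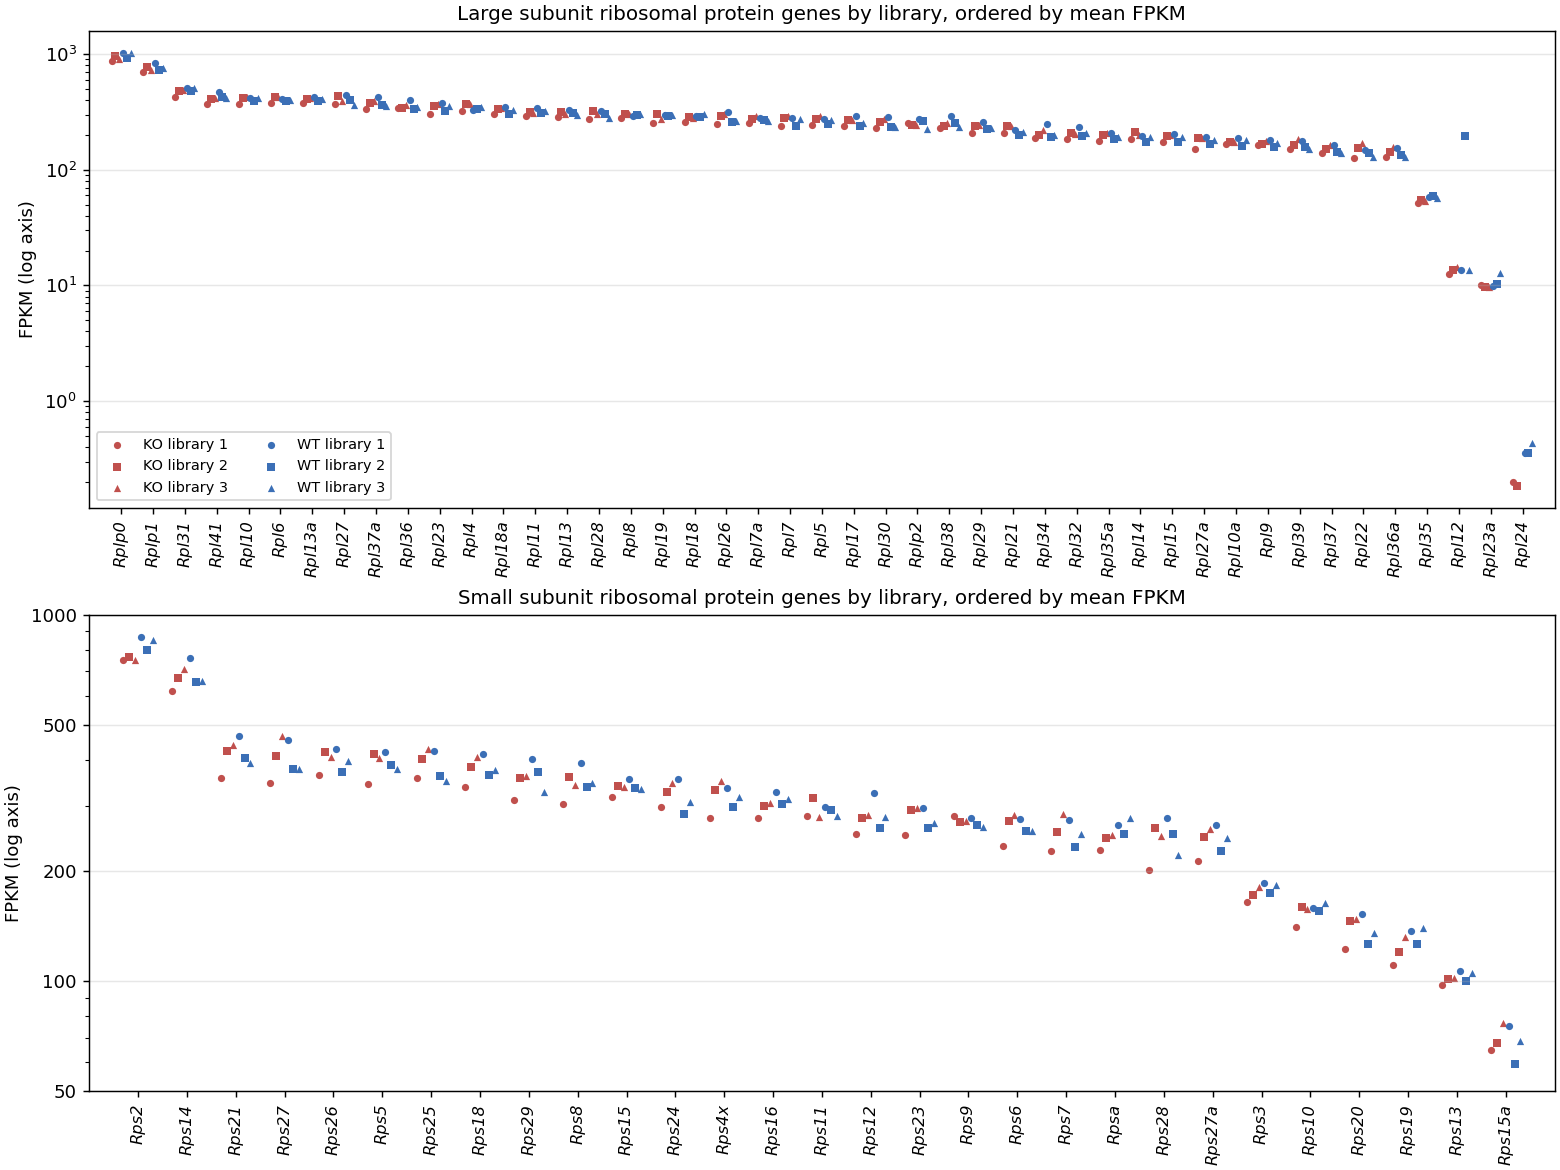
Level of 74 of the 75 ribosomal protein genes in each library in FPKM (log axis), ordered by mean within the large subunit (top) and the small subunit (bottom), with libraries labelled KO in red and libraries labelled WT in blue. The members form a plateau between 100 and 500 FPKM with 4 low genes at the right of the large subunit, where 1 WT point of Rpl12 lies far above the other 5. Rpl24 is listed at 0 in library 3 labelled KO, which a log axis cannot show.

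Among large subunit genes, the stalk genes Rplp0 and Rplp1 led. Rplp0, the scaffold of the stalk (ENSMUSG00000067274), was at 867.7, 959.4 and 904.1 FPKM in the KO-labelled libraries, against 1023, 930.5 and 1021 FPKM in the WT-labelled libraries. Rplp1, an acidic protein that dimerises on this scaffold, was at 703.1, 767.6 and 731.7 FPKM under the KO label, against 844.0, 722.0 and 752.1 FPKM under the WT label. Rplp2, the partner of Rplp1 in the dimer, was lower than both and below the median of the large subunit, at 254.4, 241.6 and 243.1 FPKM in the KO-labelled libraries and 274.2, 266.2 and 226.4 FPKM in the WT-labelled libraries. In all 6 libraries the order was thus Rplp0, Rplp1 and then Rplp2, and the groups overlapped for each. After Rplp1 came Rpl31, which lies near the mouth of the exit tunnel, Rpl41, among the smallest of the ribosomal proteins, and Rpl10, which joins late in assembly. Rpl31 ranged from 423.7 to 484.1 FPKM under the KO label and from 477.0 to 513.5 FPKM under the WT label. Rpl41 ranged from 370.9 to 419.0 FPKM in the KO-labelled libraries, against 418.3 to 472.4 FPKM in the WT-labelled libraries. Rpl10 averaged 405.1 ± 29.7 FPKM under the KO label and 409.0 ± 12.04 FPKM under the WT label (SD, n = 3 each). The order of Rpl41 and Rpl10 was not the same in all 6 libraries. Rpl10 was at 371.7, 415.1 and 428.6 FPKM in the KO-labelled libraries, each above Rpl41 at 370.9, 404.8 and 419.0 FPKM. In the WT-labelled libraries Rpl10 was at 415.8, 395.1 and 416.2 FPKM, each below Rpl41 at 472.4, 425.6 and 418.3 FPKM. The order of these genes was not tested.

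Small subunit genes were led by Rps2, a protein at the mRNA entry channel (ENSMUSG00000044533). Its level was 753.1, 767.1 and 753.9 FPKM in the KO-labelled libraries, against 867.4, 799.8 and 851.0 FPKM in the WT-labelled libraries. All 3 libraries labelled KO lay below all 3 labelled WT. Rps14, a protein of the platform whose loss underlies the human 5q- syndrome, averaged 667.7 ± 45.6 FPKM under the KO label and 691.6 ± 59.1 FPKM under the WT label (SD, n = 3 each). Rps21 and Rps27 had means of 407.9 and 408.0 FPKM in the KO-labelled libraries, against 421.4 and 404.6 FPKM in the WT-labelled libraries. Within each library Rps21 was above Rps27, except in library 3 labelled KO, with 440.2 against 465.1 FPKM. The order of those 2 genes was not tested.

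Some members with particular roles stood inside the plateau. Rps6, the protein that S6 kinase phosphorylates, was at 233.6, 273.7 and 283.1 FPKM in the KO-labelled libraries, against 277.4, 256.6 and 256.2 FPKM in the WT-labelled libraries. The means were nearly equal, at 263.5 and 263.4 FPKM under the KO and the WT label. Rpl5 and Rpl11, which carry the 5S rRNA and can bind the p53 regulator Mdm2, averaged 268.2 ± 24.6 and 305.3 ± 13.2 FPKM under the KO label, against 263.6 ± 12.1 and 323.4 ± 16.3 FPKM under the WT label (SD, n = 3 each). Rpl5 and Rpl11 were picked with their values known. Rps27a, made as a fusion with ubiquitin, averaged 240.1 ± 24.4 FPKM in the KO-labelled libraries and 246.1 ± 19.8 FPKM in the WT-labelled libraries (SD, n = 3 each). Rps4x, an X-linked gene in mouse and human, averaged 320.3 ± 38.2 FPKM under the KO label and 317.1 ± 19.7 FPKM under the WT label (SD, n = 3 each). Rpl10a and Rpl38, both linked in mouse cells or embryos to the translation of particular mRNAs, averaged 172.6 ± 4.14 and 240.6 ± 10.1 FPKM under the KO label, against 176.2 ± 13.04 and 259.5 ± 29.3 FPKM under the WT label (SD, n = 3 each).

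At the low end 5 members fell below 100 FPKM, 4 of them of the large subunit. Rpl24, a protein that reaches toward the small subunit (ENSMUSG00000098274, mm10 chromosome 16, 55966275 to 55971435, plus strand), had 1, 1 and 0 fragments in the KO-labelled libraries, against 2, 2 and 2 in the WT-labelled libraries. That is at most 0.436 FPKM in any library, under the floor of 3 fragments, so no fold is given and it was not among the tested genes. Rpl23a, which lines the exit tunnel and helps dock the signal recognition particle and lies on the minus strand of mm10 chromosome 11 (78180932 to 78183584), measured 10.1, 9.76 and 9.65 FPKM in the KO-labelled libraries, against 9.98, 10.4 and 12.8 FPKM in the WT-labelled libraries. Rpl35, another protein at the tunnel exit on the minus strand of mm10 chromosome 2 (39001580 to 39005624), measured 51.9, 54.9 and 53.4 FPKM in the KO-labelled libraries, against 57.8, 59.6 and 57.3 FPKM in the WT-labelled libraries. None of these 3 genes was above 59.6 FPKM in any library, while the ribosome holds their proteins in the same number as the others.

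Each of these genes shares much of its transcript sequence with other annotated genes, which matters because fragments that match several genes can be lost or split in counting. Of the 50-base words in its transcripts, matched on either strand, Rpl24 shared 51.8% with other genes, Rpl23a 80.8% and Rpl35 84.1%. The remaining low gene of the large subunit, Rpl12, shared 17.7%. The leading partners were Gm28037 for Rpl24, Tlcd1 for Rpl23a and Wdr38 for Rpl35, each of which overlaps the gene in the annotation. Tlcd1 and Wdr38 lie on the other strand. Gm28037 was listed at 0 in all 6 libraries, Tlcd1 at 0.843 to 1.96 FPKM and Wdr38 at 0 to 0.197 FPKM. The partners thus held few of the fragments. The median member shared 24.0% of its words, 6 members shared over 50%, and Rpl36 shared 81.1% yet stood at 349.1 ± 13.7 FPKM under the KO label and 360.5 ± 33.6 FPKM under the WT label (SD, n = 3 each). Across the 75 members the rank correlation (Spearman) of mean level with shared words was 0.20, and with gene length it was -0.33. These are descriptions across genes, which share the same libraries. The part of sequence sharing in the low levels was not tested.

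Rps15a (mm10 chromosome 7, 118104372 to 118116188, minus strand) was the lowest small subunit gene, measuring 64.7, 67.6 and 76.5 FPKM in the KO-labelled libraries, against 75.1, 59.2 and 68.3 FPKM in the WT-labelled libraries. Only 5.20% of its words were shared. The length that the authors' FPKM values imply for it was 1860 bases, among the longest of the members, whose median was 691 bases. Above it came Rps13, at 97.4, 101.0 and 101.7 FPKM in the KO-labelled libraries, against 106.3, 99.7 and 105.1 FPKM in the WT-labelled libraries. Rps19, the gene most often mutated in human Diamond-Blackfan anaemia, averaged 120.8 ± 10.6 FPKM under the KO label and 134.2 ± 7.40 FPKM under the WT label (SD, n = 3 each). Rps20 and Rps10, proteins of the head of the small subunit, averaged 138.5 and 152.5 FPKM in the KO-labelled libraries, against 137.9 and 159.0 FPKM in the WT-labelled libraries. Rpl36a, a large subunit protein near the tRNA exit site, averaged 142.9 ± 14.2 FPKM under the KO label and 139.7 ± 13.5 FPKM under the WT label (SD, n = 3 each).

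One member stood apart in a single library. Rpl12, which sits at the base of the stalk (ENSMUSG00000038900, mm10 chromosome 2, 32961559 to 32965345, plus strand), measured 12.6, 13.5 and 14.5 FPKM in the KO-labelled libraries, against 13.6, 193.9 and 13.7 FPKM in the WT-labelled libraries. The value in library 2 labelled WT was 14.3-fold above the median of the other 5 libraries and rested on 2435 fragments, against 140 to 169 in the others. With exact Poisson intervals (95%, counting error only) it was 186 to 202 FPKM in that library, and no interval of another library passed 17.1 FPKM. The value in that library lay inside the band of 100 to 500 FPKM that held most members, and the other 5 libraries lay far below this band. Rpl12 was the only one of 74 tested members with a library over 1 log2 unit (2-fold) from the median of the others, while 2.11% of all tested genes had such a library.

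The same library stood apart in other genes. Gm10275, a transcribed processed pseudogene that shares 15.4% of the 50-base words of Rpl12, was at 0.182, 0 and 0 FPKM in the KO-labelled libraries, against 0.329, 9.13 and 0.2002 FPKM in the WT-labelled libraries. Hsp90aa1, a stress-inducible chaperone picked with its values known, was at 2.26, 2.26 and 2.89 FPKM in the KO-labelled libraries, against 3.45, 51.2 and 3.72 FPKM in the WT-labelled libraries. Over all tested genes, 67 lay more than 1 log2 unit above the median of the other libraries in library 2 labelled WT and 62 in library 3 labelled WT. The 4 other libraries had 14 to 25 such genes. Rpl12 also overlaps Lrsam1 on the other strand and the small nucleolar RNA gene Snora65, and the sources used here do not give strand assignment. Why Rpl12 differed between that library and the others was not tested.

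**Figure D2:**
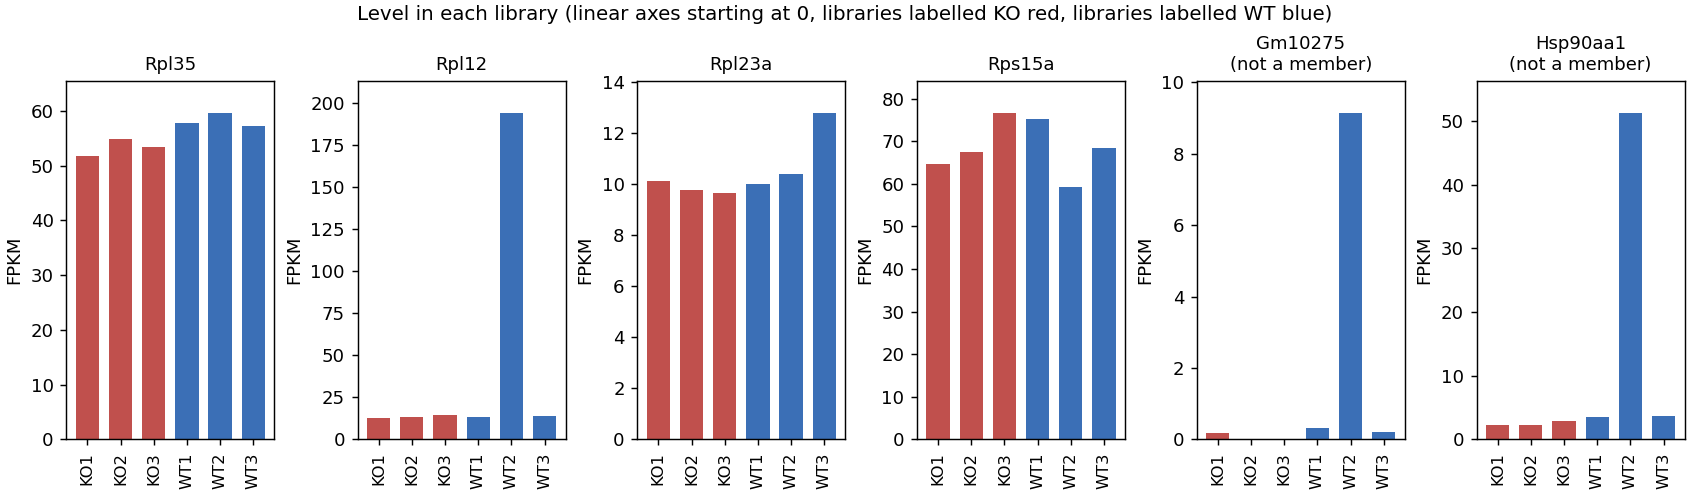
Level in FPKM (linear axes from 0) of 4 low ribosomal protein genes, the Rpl12-related pseudogene Gm10275 and Hsp90aa1 in the 3 libraries labelled KO (red) and the 3 labelled WT (blue). Rpl12, Gm10275 and Hsp90aa1 are high in library 2 labelled WT alone, at 193.9, 9.13 and 51.2 FPKM, while Rpl35, Rpl23a and Rps15a are not.

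No member differed between the labels past the test. With limma on log2(FPKM + 1) and Benjamini-Hochberg adjustment over 11383 genes, 0 of 74 tested members and 0 of all tested genes (0%) had an adjusted p under 0.05, the smallest among members being 0.988. With limma voom on fragments recovered from the values, the count was again 0 for members and for all genes. At an unadjusted p under 0.05, limma on log2(FPKM + 1) found 0 members up and 0 down under the KO label, against 1.28% and 3.31% of all tested genes, and voom found 0 members in either direction. The gene nearest to the threshold was Rps2, with a log2 difference of -0.15 (SE 0.0695, limma, unadjusted p = 0.0672, adjusted p = 0.988).

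The intervals were narrow. The difference was between -0.15 and 0.12 on the log2 scale for the 73 tested members other than Rpl12, and their 95% intervals all lay between -0.40 and 0.38. An interval within 0.5 log2 units of 0 was obtained for 73 of 74 members and for 70% of all tested genes. The median standard error was 0.0897 for members and 0.130 for all tested genes. Rpl12 had a difference of -1.26 (SE 0.865, 95% interval -3.24 to 0.72), which was -0.01 without library 2 labelled WT. The largest positive difference was that of Rpl22, an RNA-binding protein of the large subunit, at 0.12 (SE 0.115). Rpl22 was at 126.7, 155.1 and 171.1 FPKM in the KO-labelled libraries, against 147.1, 138.2 and 129.6 FPKM in the WT-labelled libraries, with the lowest and the highest value both under the KO label.

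**Figure D3:**
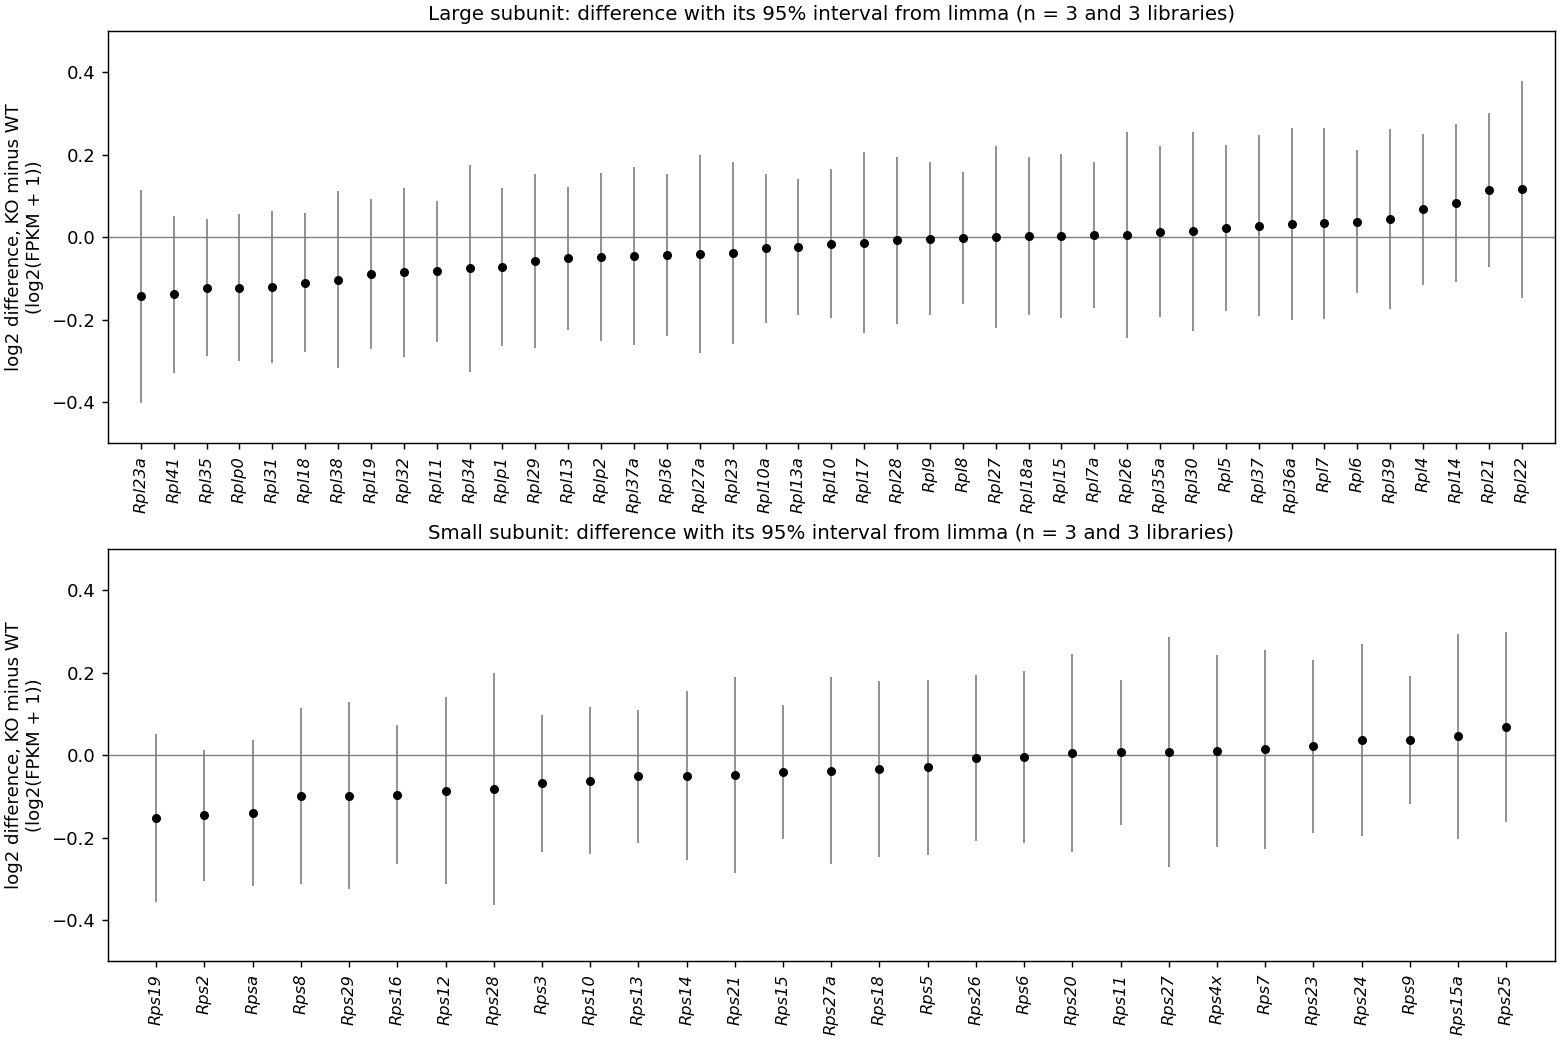
Log2 difference (labelled KO minus labelled WT, on log2(FPKM + 1)) of 43 large subunit genes (top) and 29 of the 30 small subunit genes (bottom), with 95% intervals from limma and n = 3 libraries per label. Every interval includes 0 and lies between -0.40 and 0.38. Rpl12 (-1.26) and the untested Rpl24 are left out.

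The members were lower more often than higher under the KO label, by small amounts. Of 74 tested members, 26 were higher and 48 lower in the KO-labelled libraries, where 43.3% of all tested genes were higher. With each library's median subtracted the split was 44 higher and 30 lower, and with quantile normalization 40 higher and 34 lower, so the direction of the family depends on the scaling. The median log2 difference was -0.02 for large subunit genes (16 higher, 28 lower), -0.04 for small subunit genes (10 higher, 20 lower) and -0.02 for all tested genes. With each library's median subtracted the medians were 0.03 for the large and 0.01 for the small subunit. The summed level was 20120, 22410 and 22750 FPKM in the KO-labelled libraries, against 23830, 21490 and 21860 FPKM in the WT-labelled libraries. The means, 21760 ± 1428 and 22390 ± 1256 FPKM under the KO and the WT label (SD, n = 3 each), differed by -2.83%, less than either SD, and by 0.271% with each library's median subtracted.

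Groups did not overlap for 4 members, all lower under the KO label (5.64% of all tested genes), and for 0 members higher under it (3.84%). These were Rps2 and Rpl35, described above, Rpsa and Rpl18. Rpsa, which also serves as a laminin receptor, was at 227.2, 245.1 and 250.3 FPKM in the KO-labelled libraries, against 267.2, 251.0 and 279.1 FPKM in the WT-labelled libraries (log2 difference -0.14, SE 0.0772). Rpl18, named because its groups did not overlap, was at 256.4, 283.5 and 278.0 FPKM under the KO label, against 291.3, 286.7 and 304.7 FPKM under the WT label (log2 difference -0.11, SE 0.0736). The share, 4 of 74, is near the background. With each library's median subtracted the count was 0.

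The members moved together from library to library, and the shifts within a label were larger than the difference between the labels. Relative to each gene's mean over the 6 libraries, the median member deviated by -0.13, 0.02 and 0.06 log2 units in libraries 1, 2 and 3 labelled KO, against 0.11, -0.05 and -0.01 in the WT-labelled libraries. Library 1 labelled KO was the lowest of the 6 for 58 of 74 members (1826 of 11383 tested genes), and library 1 labelled WT was the highest for 43 of 74 (1970 of 11383 tested genes). Both subunits took part: library 1 labelled KO was lowest for 33 of 44 large and 25 of 30 small subunit genes, and library 1 labelled WT was highest for 24 and 19 of them. Without library 1 labelled KO, 45 of 74 members were higher under the KO label and the median difference was 0.03. Without library 1 labelled WT, 47 were higher and the median was 0.02. Leaving out another library gave 9 to 19 higher members.

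**Figure D4:**
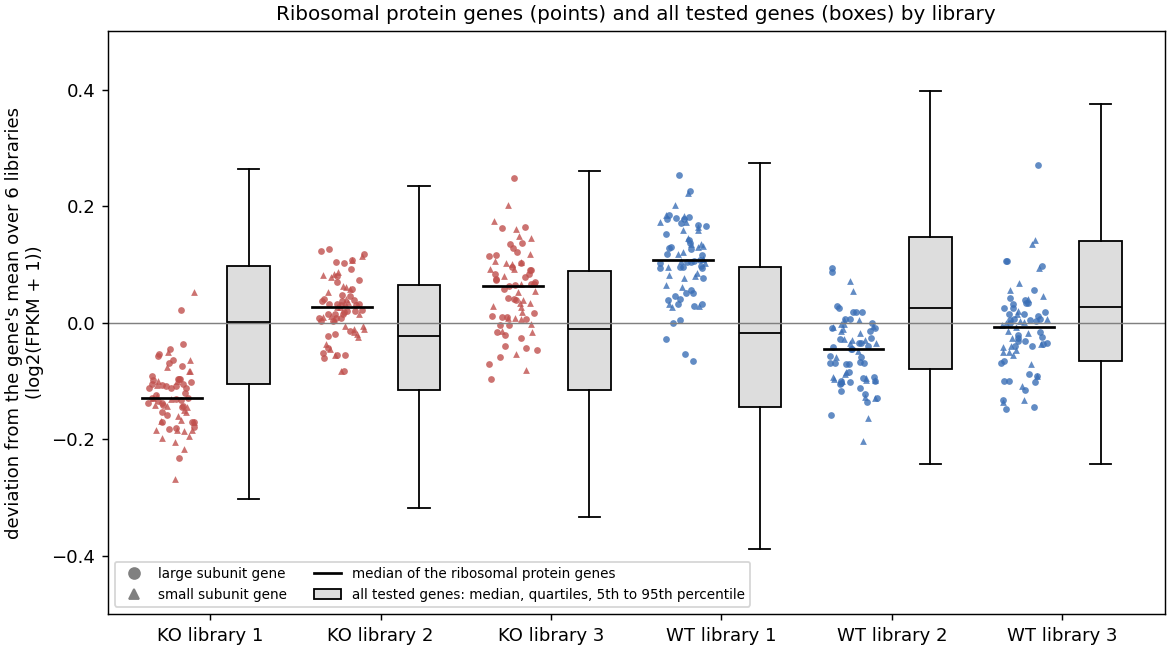
Deviation of log2(FPKM + 1) from each gene's mean over the 6 libraries, for 73 ribosomal protein genes (circles, large subunit; triangles, small subunit; black line, median) and for all 11383 tested genes (boxes). The points sit low in library 1 labelled KO and high in library 1 labelled WT, while the medians of all tested genes there are 0.00 and -0.02. Rpl12 is left out.

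Several measures of the libraries moved with parts of these shifts. The 62 members with an implied length under 1000 bases make up most of the family, against 16.9% of all tested genes. Tested genes of that length class deviated in the median by -0.05 in library 1 labelled KO and by 0.06 in library 1 labelled WT. Summed over 6 erythroid markers, all with a mean of at least 1 FPKM, the level was 473.5, 711.1 and 783.3 FPKM in the KO-labelled libraries, against 757.8, 458.7 and 859.4 FPKM in the WT-labelled libraries. Mitochondrial genes held 15.2%, 17.8% and 19.8% of the fragments in the KO-labelled libraries, against 17.3%, 15.5% and 17.0% in the WT-labelled libraries. Library 1 labelled KO and library 2 labelled WT, the lowest of the 6 in summed ribosomal protein level, were thus also the lowest in erythroid markers and in mitochondrial share. At the high end the match did not hold: library 1 labelled WT, highest in summed ribosomal protein level, was highest in neither. The part of these measures in the result was not tested. In whole muscle, fewer cells of a type and less RNA per cell cannot be told apart.

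Other cell type markers differed between libraries in other ways. Summed over 7 slow fibre markers the level was 254.0 to 369.9 FPKM under the KO label and 285.3 to 571.4 FPKM under the WT label, with library 2 labelled WT highest. The 10 fibroblast markers summed to 612.7 to 770.1 FPKM in the KO-labelled libraries, against 550.7 to 1101 FPKM in the WT-labelled libraries. The 10 macrophage and leukocyte markers summed to 42.9 to 52.2 FPKM under the KO label and 42.2 to 105.3 FPKM under the WT label. The 8 neutrophil markers summed to 1.79 to 15.6 FPKM under the KO label and 1.68 to 223.9 FPKM under the WT label, the last in library 3.

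Once the common shift was taken off, the median spread of the members was smaller, though not every member's spread fell. The shift was the members' own median, which by itself favours a smaller spread. The median SD of a member over the 6 libraries was 0.103 log2 units, and it was 0.0586 after subtracting the median of the members in each library. Counting error alone would give a median of 0.0326. The SD left was under 0.1 log2 units for 69 of 74 members, and for 46 it was less than 2 times the counting error. Beyond Rpl12, the members with the most left were Rpl23a, Rplp2, Rpl22 and Rps28. For Rpl23a, with 45 to 62 fragments a library, it was 0.175 (0.137 before the subtraction) and lay within the counting error of 0.193. For Rplp2 it was 0.123 (0.101 before the subtraction) against a counting error of 0.0384. Library 1 labelled KO and library 2 labelled WT lay above the family by 0.15 and 0.13 for Rplp2. Rpl22 had 0.118 and Rps28, which lies at the mRNA exit, had 0.110.

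Among tested members other than Rpl12, the largest deviation of a library from the median of the other 5 was that of Rpl23a in library 3 labelled WT, at 0.32 log2 units on 62 fragments, and Rpl22 in library 3 labelled KO had 0.31. Rps28 was at 201.0, 261.2 and 248.8 FPKM in the KO-labelled libraries, against 278.8, 251.7 and 220.9 FPKM in the WT-labelled libraries, the first lying 0.32 log2 units below the median of the others. Rpl27a was at 150.4, 188.4 and 186.7 FPKM under the KO label, against 191.7, 168.2 and 179.0 FPKM under the WT label. Rps27 was at 347.4, 411.5 and 465.1 FPKM under the KO label, against 455.8, 378.8 and 379.3 FPKM under the WT label. The extreme library was library 1 labelled KO for Rps28 and Rpl27a and library 3 labelled KO for Rps27. Rpl34 and Rpl30 were highest in library 1 labelled WT, at 247.2 and 285.1 FPKM, where the other libraries reached 219.6 and 272.0 FPKM.

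Several ribosomal genes outside the name rule are described next. Rps3a1, a small subunit protein, averaged 383.8 ± 40.3 FPKM in the KO-labelled libraries and 374.4 ± 43.6 FPKM in the WT-labelled libraries. Fau, made as a fusion with a ubiquitin-like protein, averaged 224.2 ± 9.62 and 239.1 ± 10.6 FPKM, and Rack1, a scaffold on the small subunit, 178.5 ± 12.8 and 176.5 ± 7.22 FPKM, under the KO and the WT label (SD, n = 3 each). The muscle paralog Rpl3l averaged 458.7 ± 21.5 FPKM under the KO label and 441.6 ± 24.6 FPKM under the WT label, within the range of the most abundant members. Rps27l and Rpl36al, paralogs of Rps27 and Rpl36a, averaged 215.3 ± 11.8 and 150.2 ± 9.73 FPKM under the KO label, against 209.9 ± 21.9 and 149.6 ± 8.01 FPKM under the WT label (SD, n = 3 each).

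Of the 13 such genes listed, 10 were tested, 6 of them higher and 4 lower under the KO label, and 0 passed the adjusted threshold. Rps4l, annotated as a transcribed processed pseudogene, was at 2.26, 1.88 and 1.23 FPKM in the KO-labelled libraries, against 3.44, 3.83 and 2.74 FPKM in the WT-labelled libraries, on 9 to 36 fragments a library. Its log2 difference was -0.65 (SE 0.179, limma, unadjusted p = 0.00636, adjusted p = 0.988). Rpl7l1, a paralog of Rpl7, was at 13.08, 13.61 and 12.95 FPKM under the KO label, against 18.3, 13.9 and 16.9 FPKM under the WT label (log2 difference -0.28, SE 0.114, limma, unadjusted p = 0.0373, adjusted p = 0.988). In both genes all libraries labelled KO lay below all labelled WT. Rpl22l1, the paralog of Rpl22, averaged 11.1 ± 3.04 FPKM under the KO label and 10.2 ± 1.72 FPKM under the WT label (SD, n = 3 each).

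Processed copies of ribosomal protein genes held little of the signal. The 272 pseudogene rows named after a ribosomal protein summed to 47.1, 47.1 and 60.2 FPKM in the KO-labelled libraries, against 62.1, 46.0 and 50.1 FPKM in the WT-labelled libraries. The highest single one was Rps13-ps1, at up to 7.24 FPKM, where its parent Rps13 was at 97.4 FPKM or more. By position, the members were spread over 19 chromosomes with 14 of them on chromosome 7. In 36 members an exon of any annotated transcript overlapped an exon of another annotated gene, in 18 of them on the other strand. The overlapping genes included small nucleolar RNA genes, such as Snora65 in Rpl12. In 14 members a small nucleolar RNA on the same strand lay clear of every annotated exon of the member. That count leaves out any small nucleolar RNA in an intron that an exon of another transcript covers. Levels of the overlapping genes are uncertain to the extent of these overlaps.

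Other lists of the translation machinery held no called gene either. Of 77 tested mitochondrial ribosomal protein genes, 26 were higher and 51 lower under the KO label, with a median log2 difference of -0.04. The most abundant were Mrpl42, at 390.7 ± 23.4 FPKM in the KO-labelled libraries and 409.3 ± 59.6 FPKM in the WT-labelled libraries, and Mrps21, at 298.3 ± 13.4 and 318.7 ± 30.1 FPKM (SD, n = 3 each). By library, these genes deviated in the median by -0.01 in library 1 labelled KO and by 0.15 in library 1 labelled WT. Their median was thus raised with that of the cytosolic genes in library 1 labelled WT and near 0 in library 1 labelled KO. Of 41 translation factors, 27 were higher and 14 lower under the KO label, with a median of 0.03. Tpt1, a growth-linked protein whose mRNA carries a TOP tract, averaged 1517 ± 8.13 FPKM under the KO label and 1622 ± 174 FPKM under the WT label, and Eef1a2, the muscle form of the elongation factor that delivers tRNA, 720.3 ± 35.5 and 692.8 ± 52.6 FPKM (SD, n = 3 each).

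Of 64 tested genes of ribosome assembly and the nucleolus, 31 were higher and 33 lower under the KO label, with a median of 0.00. Npm1, an abundant nucleolar chaperone, was at 77.1, 98.1 and 108.2 FPKM in the KO-labelled libraries, against 98.5, 78.3 and 89.8 FPKM in the WT-labelled libraries. Its lowest libraries were library 1 labelled KO and library 2 labelled WT, which were also lowest in summed ribosomal protein level. Ncl, which takes part in the transcription and processing of rRNA, averaged 79.0 ± 3.75 FPKM under the KO label and 72.9 ± 4.27 FPKM under the WT label (SD, n = 3 each). Of 14 genes chosen here as a list around the control of TOP mRNAs, 8 were higher and 6 lower. Cnbp, a zinc-finger protein that binds single-stranded nucleic acids, averaged 454.4 ± 33.1 FPKM under the KO label and 463.9 ± 14.95 FPKM under the WT label, and Mknk2, a kinase of the cap-binding factor eIF4E, 178.5 ± 25.6 and 208.9 ± 15.4 FPKM (SD, n = 3 each). None of these 4 lists had a member past the adjusted threshold with limma, and at an unadjusted p under 0.05 they had 2 genes in all, 1 mitochondrial ribosomal protein gene lower and 1 assembly gene higher.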

How the data were processed

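Gene tables of 6 mouse tibialis anterior libraries, 1 per library, were used. The authors deposited FPKM values per gene. The submitters' processing notes name mm10, TopHat2 2.1.1 and Cufflinks 2.2.1. What each tool did, strand assignment, annotation and read filters were not given in the sources used here. Per the labels, total RNA was extracted with Trizol, and groups and replicate numbers come from the titles. The members and lists were chosen with earlier results of these data known.

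Since FPKM values are not counts, limma 3.58.1 (R 4.3.3) was run on log2(FPKM + 1), which understates changes of low genes. It used a mean-variance trend, no further scaling and Benjamini-Hochberg adjustment (threshold 0.05) over the 11383 genes averaging 1 FPKM or more. Tests that need raw counts were therefore not used. For all 23559 genes above 0 (100%), a length from 20 to 110000 bases turned every FPKM value above 0 into whole fragments (tolerance 0.002). The smallest such length was taken, and others may fit as well. For genes above 0 in few libraries such a length is easily found, so the share is no check of their lengths. The recovered totals were 9708838, 10435095 and 8476591 for libraries 1, 2 and 3 labelled KO and 10752204, 10856669 and 8842349 for those labelled WT. Poisson intervals and the floor of 3 fragments cover counting error only. The recovered lengths equalled the exon union for 14.5% of genes, so levels between genes rest on the authors' lengths.

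Positions, overlaps and shared 50-base words come from GENCODE transcripts of mm10, and start sites from RefSeq (GRCm38.p6). Of the table IDs, 40452 matched a symbol and 573 did not. The text names, per subunit, the 5 members of highest and lowest mean, members with an unadjusted p under 0.05, the 10 with the largest single-library deviation and a set given by role (the stalk genes, Rpsa, Rps6, Rps27a, Rps4x, Rpl10a, Rpl38 and Rpl41). Some values that this rule would name are not reported here. The text also names tested ribosomal genes outside the name rule and the 2 most abundant members of each other list. Rpl5, Rpl11, Rpl18, Rpl36 and Hsp90aa1 were picked with their values known. Alternatives were other scalings, pseudocounts and filters, no trend, a replicate block, leaving out each library and, chosen after seeing the data, voom. The test was checked on simulated data. Python 3.11.15, pandas 2.3.3, numpy 2.4.6, scipy 1.17.1 and matplotlib 3.10.9 were used.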

Additional observations from a re-analysis of the deposited data

How the results depend on the processing

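Of 76 checks of summary results under another scaling, pseudocount, filter or fit, 72 kept their count within 1.5 times or moved by less than the spread between libraries, and so did 45 of 60 with a library left out. Small values changed sign among these: the median log2 difference of large and small subunit genes was 0.027 and 0.0080 with medians subtracted and 0.012 and 0.0054 with quantile normalization. Without library 1 labelled KO the medians were 0.039 and 0.033, and without library 1 labelled WT 0.029 and 0.020. The members higher under the KO label numbered 26, but 44 with library medians subtracted, 40 with quantile normalization and 9 to 47 with a library left out. Members with non-overlapping groups numbered 4, but 0 with library medians subtracted and 6 to 12 with a library left out, where fewer samples make separation easier. Without the filter on low values, 1 member (Rpl24, on at most 2 fragments a library) had an unadjusted p under 0.05 and was lower, and leaving out a library gave 0 to 1 higher, the 1 being Rpl22 without library 1 labelled KO. No member passed the adjusted threshold under any of these settings, and over all genes 0 to 3 did with a library left out (Gm2830 without library 3 labelled KO, Igha without library 1 labelled WT, and Gm17720, Myh7 and Tnnc1 without library 3 labelled WT). The single-library outliers numbered 0 to 1 with a library left out, since Rpl12 rests on library 2 labelled WT. Unadjusted p under 0.05 was found for 339 to 1356 genes across settings. The summed level differed by 0.271% with medians subtracted and by -5.03% to 0.83% with a library left out, above 0 without library 1 of either label.

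Among checks of the log2 differences of named members, 9 changed sign under another scaling, with Rpl10, Rps27a and Rps6 counted under both scalings. With medians subtracted these were Rpl10 at 0.031, Rpl10a at 0.020, Rpl27a at 0.0053, Rps27a at 0.0096 and Rps6 at 0.043, and with quantile normalization Rpl10 at 0.049, Rps21 at 0.0020, Rps27a at 0.0087 and Rps6 at 0.022. The cause was not tested. With a library left out, the ranges that crossed 0 were -0.058 to 0.044 for Rpl10, -0.087 to 0.018 for Rpl10a, -0.098 to 0.064 for Rpl27a, -0.039 to 0.11 for Rpl30, -0.14 to 0.032 for Rpl34, -0.041 to 0.11 for Rpl36a and -0.13 to 0.0048 for Rplp2. In the small subunit they were -0.095 to 0.020 for Rps14, -0.045 to 0.12 for Rps15a, -0.057 to 0.092 for Rps20, -0.11 to 0.042 for Rps21, -0.092 to 0.12 for Rps27, -0.098 to 0.046 for Rps27a, -0.17 to 0.032 for Rps28, -0.061 to 0.11 for Rps4x and -0.058 to 0.080 for Rps6.

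The replicate numbers did not pair the libraries: deviations of same-numbered libraries correlated at 0.0236, -0.0408 and 0.0232 over 11383 genes. With the replicate number as a block, 0 members and 0 genes passed the adjusted threshold, 472 genes had an unadjusted p under 0.05, and 26 members were higher. The edgeR and DESeq2 alternatives for raw counts were not run. Depth limits Rpl24, Rpl23a, Rps4l and Mettl21e, each with under 70 fragments in any library.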
